A study of Saccharomyces cerevisiae with 17 samples.

Results

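The genes described here, 10 in number, were taken by their systematic names from a table of raw read counts, and all of them were found among its 6692 rows. They encode the enzymes that make and break glycogen and trehalose, the carbohydrate stores of budding yeast. The list is defined by function, with no threshold on measured values, although earlier results of these data were known when it was drawn up. The table covers poly(A) RNA of haploid Saccharomyces cerevisiae in 17 libraries, 5 of wild type, 3 of upf1Δ, 6 of nmd4Δ and 3 of ebs1Δ. All strains derive from BY4741, a laboratory strain, and carry the plasmid pRS415, which supplies LEU2 for growth on minimal dextrose medium lacking leucine, where cells were collected at an optical density typical of mid-log growth. In each mutant 1 gene of nonsense-mediated mRNA decay (NMD) was replaced by the marker KlURA3. The missing gene was UPF1 (the central helicase), NMD4 or EBS1 (both for proteins that bind Upf1). Wild type lacks the marker, so in a comparison with wild type marker and deletion cannot be told apart. The labels do not say whether a deletion was studied in more than 1 clone.

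Yeast builds glycogen from UDP-glucose. Glycogenin (GLG1) primes the chain, glycogen synthase (GSY1 and GSY2) extends it, and phosphorylase (GPH1) releases glucose 1-phosphate from it, which phosphoglucomutase (PGM2) interconverts with glucose 6-phosphate. A protein phosphatase is brought to glycogen synthase by its targeting subunit, GAC1. Trehalose, a disaccharide that also protects proteins and membranes under stress, is made in a complex of a synthase (TPS1), a phosphatase (TPS2) and a regulatory subunit (TSL1), and is split by neutral trehalase (NTH1). Many of these genes are known targets of Msn2 and Msn4, activators that bind the stress response element AGGGG and that protein kinase A holds back in cells growing on glucose.

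The reading frames lie on R64, the assembly known as sacCer3. For glycogen they are GLG1 (YKR058W, chromosome XI, 552770 to 554620), GSY1 (YFR015C, chromosome VI, 174265 to 176391), GSY2 (YLR258W, chromosome XII, 660716 to 662833), GAC1 (YOR178C, chromosome XV, 667860 to 670241), GPH1 (YPR160W, chromosome XVI, 861306 to 864014) and PGM2 (YMR105C, chromosome XIII, 475897 to 477606). For trehalose they are TPS1 (YBR126C, chromosome II, 488905 to 490392), TPS2 (YDR074W, chromosome IV, 593893 to 596583), TSL1 (YML100W, chromosome XIII, 70624 to 73920) and NTH1 (YDR001C, chromosome IV, 450220 to 452475). All are single protein-coding exons, with 0 introns, and 0 other RefSeq genes overlap them. Relatives such as GSY1 and GSY2 can be told apart by sequence. The longest identical run between their reading frames was 20 bases, with 23 bases for PGM2 and PGM1, 33 for NTH1 and NTH2, 15 for TSL1 and TPS3, and 14 for GLG1 and GLG2.

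The stress response element was searched as AGGGG on both strands in the 500 bases before each start codon. TPS1 held 6 copies, PGM2 and TSL1 5 each, TPS2 4, NTH1 3, and GSY1, GSY2 and GPH1 2 each. In GLG1 and GAC1 these letters did not occur. At least 2 copies were thus present in 8 of 10 windows, against 8.1% of the 6000 windows of all protein-coding genes, 34.1% of which held at least 1. In 20 other stress genes that depend on Msn2 and Msn4, 70% of windows held at least 2 and 95% at least 1. The stretches of 6 genes are shown because they hold copies close together in genes whose mRNAs varied together between libraries. Each is 120 bases long and ends at least 130 bases before the start codon, is written 5′ to 3′ on the gene's own strand from RefSeq R64, and has the element in capitals.
GPH1, chrXVI:860907-861026, plus strand: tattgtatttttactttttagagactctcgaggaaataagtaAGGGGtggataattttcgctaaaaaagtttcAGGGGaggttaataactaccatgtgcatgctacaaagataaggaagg
PGM2, chrXIII:477901-478020, minus strand: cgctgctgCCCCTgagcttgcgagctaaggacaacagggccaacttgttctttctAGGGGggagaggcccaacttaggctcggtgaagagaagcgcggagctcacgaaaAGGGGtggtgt
TPS1, chrII:490598-490717, minus strand: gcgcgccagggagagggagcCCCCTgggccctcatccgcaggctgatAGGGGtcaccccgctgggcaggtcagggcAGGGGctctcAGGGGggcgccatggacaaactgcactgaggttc
TPS2, chrIV:593393-593512, plus strand: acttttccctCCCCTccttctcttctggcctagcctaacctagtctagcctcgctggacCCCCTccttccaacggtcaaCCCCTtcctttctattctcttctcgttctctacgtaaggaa
TSL1, chrXIII:70375-70494, plus strand: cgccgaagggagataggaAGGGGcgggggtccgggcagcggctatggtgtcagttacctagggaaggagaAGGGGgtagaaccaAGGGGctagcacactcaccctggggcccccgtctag
NTH1, chrIV:452760-452879, minus strand: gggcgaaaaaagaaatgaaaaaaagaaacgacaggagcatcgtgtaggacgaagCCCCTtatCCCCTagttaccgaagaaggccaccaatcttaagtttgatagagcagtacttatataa

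**Figure D1:**
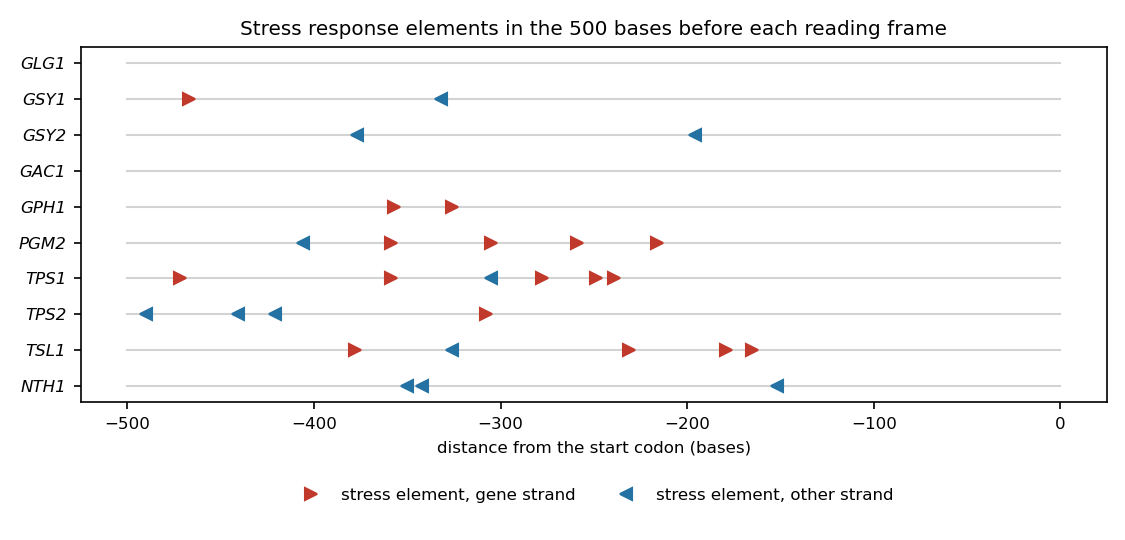
Position of each stress response element in the 500 bases before the start codon of the 10 genes (x axis, bases from the start codon), with the arrow giving the strand. GLG1 and GAC1 have 0 copies, the other 8 genes 2 to 6, and no copy lies within 100 bases of a start codon.

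Libraries of batch 1 (11 in all) held 19.75 to 29.67 M counted reads, and those of batch 2 (6, of wild type and nmd4Δ) 40.37 to 59.48 M. The deleted genes checked the labels, with 5 to 59 reads for UPF1 (listed as NAM7) in upf1Δ libraries, 17 to 61 for NMD4 in nmd4Δ and at most 1 for EBS1 in ebs1Δ, against 805 or more for each of them in wild type. Several libraries of batch 2 resembled 1 particular library of batch 1. Wild type 3 and 4 matched 1 and 2, and nmd4Δ 4, 5 and 6 matched 1, 2 and 3. Over all genes the chi-square per degree of freedom was 9.26 to 13.5 in these 5 pairs and 20.9 to 48.3 in the other pairs across batches. Unmatched pairs within batch 1 could be as close, with 12.3 for nmd4Δ 2 and 3 and 14.6 for ebs1Δ 2 and 3. Matched libraries may stem from the same culture or RNA, which the labels do not say. They were averaged before any mean and SD, which gives 3 sets per genotype. The edgeR fit counts all 17 libraries as separate, so if matched libraries share a source its SEs and p-values are too small in comparisons with wild type or nmd4Δ. The comparison of upf1Δ with ebs1Δ holds no matched libraries. Its spread and degrees of freedom are still estimated from all 17, so it may be affected as well. Levels are CPM, the usual depth-normalised read counts, on TMM-scaled library sizes. Changes are log2 fold changes ± SE of edgeR's quasi-likelihood test, fitted on 6162 genes with genotype and batch as terms and called at a Benjamini-Hochberg adjusted p under 0.05. The labels number biological replicates without saying what was separate, so p-values measure the spread between these libraries.

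In wild type the 10 mRNAs spanned a wide range of levels per kb of coding length. TPS1 was highest at 221 ± 40.6 CPM per kb (SD, n = 3 sets), followed by GSY2 at 93.5 ± 11.1. NTH1 (58.8 ± 4.60), TPS2 (52.9 ± 9.50), TSL1 (52.1 ± 15.4) and PGM2 (50.85 ± 10.99) came next and did not differ beyond their spread. GPH1 (28.2 ± 8.26) and GSY1 (23.2 ± 5.33) likewise lay within each other's spread. GLG1 followed at 12.4 ± 1.35 CPM per kb, and GAC1 was far below all others at 0.353 ± 0.0733. GSY2 mRNA, for the synthase isoform known as the main one, was thus above that of GSY1 in this measure. TPS1 and GSY2 were also the highest in upf1Δ (193 ± 40.8 and 103 ± 13.3) and GAC1 the lowest (1.504 ± 0.113). GLG1 (36.3 ± 1.80 CPM per kb) was there above GSY1 (17.7 ± 5.12) and GPH1 (16.9 ± 1.92).

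**Figure D2:**
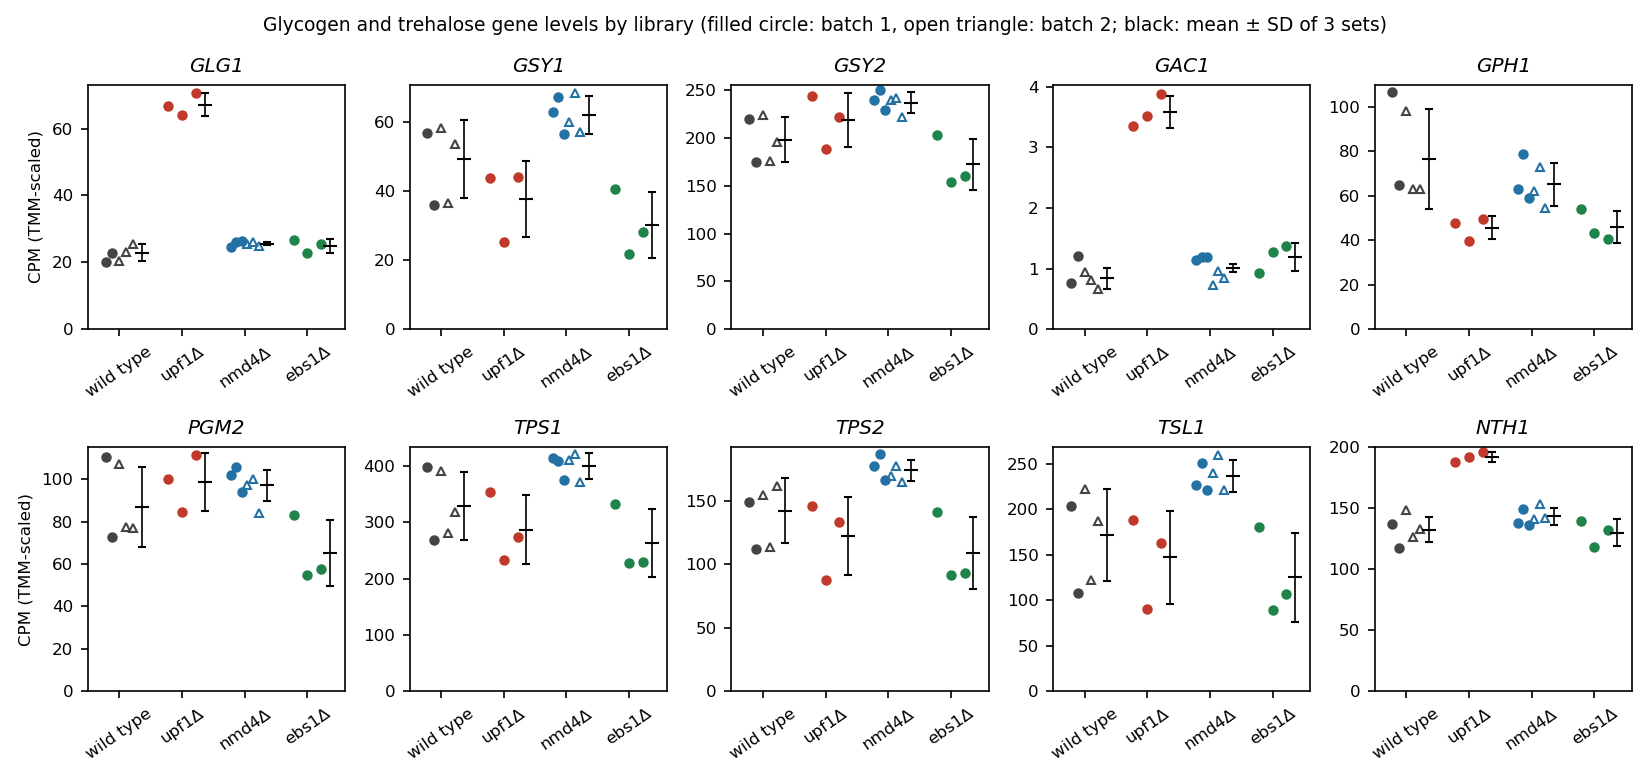
CPM of each gene (y axis, from 0) in every library of the 4 genotypes. Filled circles are batch 1, open triangles batch 2, and black bars the mean ± SD of 3 sets. GLG1, GAC1 and NTH1 stand above all other libraries in upf1Δ, while GPH1 is below wild type in upf1Δ and ebs1Δ.

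Loss of Upf1 raised 3 of the 10 mRNAs and lowered 1. Across all tested genes 36.4% were called higher and 35.1% lower in this comparison, so the share of members called (4 of 10) was below the background of 71.5% in either direction. The median change of the members was -0.02, as it was over all tested genes (-0.02). The 3 rises were in the glycogen primer gene GLG1, the phosphatase subunit gene GAC1 and the trehalase gene NTH1, and the fall was in the phosphorylase gene GPH1. The 4 calls were made under each of the 21 alternatives run for this comparison, which included leaving out each wild type and each upf1Δ library in turn.

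GLG1 encodes glycogenin, which starts new glycogen chains. Its mRNA was at 20.2, 22.7, 20.5, 23.0 and 25.4 CPM in the 5 wild type libraries and at 66.9, 64.1 and 70.7 CPM in upf1Δ. In nmd4Δ it ranged from 24.7 through a median of 25.7 to 26.4 CPM, and in ebs1Δ it was at 26.6, 22.7 and 25.4 CPM. The upf1Δ libraries thus stood apart from all 14 others. Against wild type the upf1Δ level of GLG1 was 3.05-fold, a log2 change of 1.61 ± 0.074 (edgeR adjusted p = 3.22e-13). It was also higher in upf1Δ than in nmd4Δ (1.41 ± 0.068, adjusted p = 7.85e-13) and ebs1Δ (1.43 ± 0.075, adjusted p = 4.55e-12), comparisons in which both sides carry KlURA3.

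GAC1, the subunit that directs the phosphatase Glc7 to glycogen synthase, was scarce everywhere. Its counts were 20 to 52 reads per wild type library and 89 to 98 per upf1Δ library. In CPM these were 0.760, 1.20, 0.939, 0.817 and 0.661 in wild type and 3.35, 3.52 and 3.88 in upf1Δ. The other deletions overlapped wild type, with a range of 0.727 to 1.20 CPM (median 1.06) in nmd4Δ and values of 0.929, 1.27 and 1.37 in ebs1Δ. GAC1 rose in upf1Δ by 1.79 ± 0.183 (adjusted p = 6.51e-08). The 300 genes nearest to GAC1 in mean level had a median change of 1.07 in upf1Δ, whereas the neighbours of GLG1 in level had a median of 0.13 and those of NTH1 of -0.20.

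NTH1, which encodes the trehalase of growing cells, was the only member of the trehalose branch called in upf1Δ. Its level was 188, 192 and 197 CPM there, against 137, 117, 149, 127 and 133 CPM in wild type. In ebs1Δ it was 140, 119 and 133 CPM, and in nmd4Δ 136 to 154 CPM (median 142). All upf1Δ libraries were above all others. The change from wild type was 0.58 ± 0.072 (adjusted p = 9.03e-07), that from nmd4Δ 0.46 ± 0.067 (adjusted p = 9.18e-06) and that from ebs1Δ 0.56 ± 0.072 (adjusted p = 2.14e-06).

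GPH1, the phosphorylase gene, went the other way. Wild type libraries had 107, 64.7, 97.9, 63.1 and 63.0 CPM and upf1Δ libraries 47.7, 39.7 and 49.5. The ebs1Δ libraries were at 54.1, 43.1 and 40.5 CPM, and those of nmd4Δ at 54.4 to 78.7 with a median of 62.7. Both upf1Δ and ebs1Δ lay wholly below wild type, and wild type replicates 1 and 3, a matched pair, were well above the other 3. The fall in upf1Δ was -0.87 ± 0.216 (adjusted p = 0.00254), and 0.9% of all tested genes had a change that low or lower. Leaving out wild type 1 and 3 together, an alternative added after the data were seen, gave -0.53 in upf1Δ with an adjusted p of 0.00847 by edgeR. No difference in GPH1 between upf1Δ and ebs1Δ was called (-0.01 ± 0.220, adjusted p = 0.966).

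**Figure D3:**
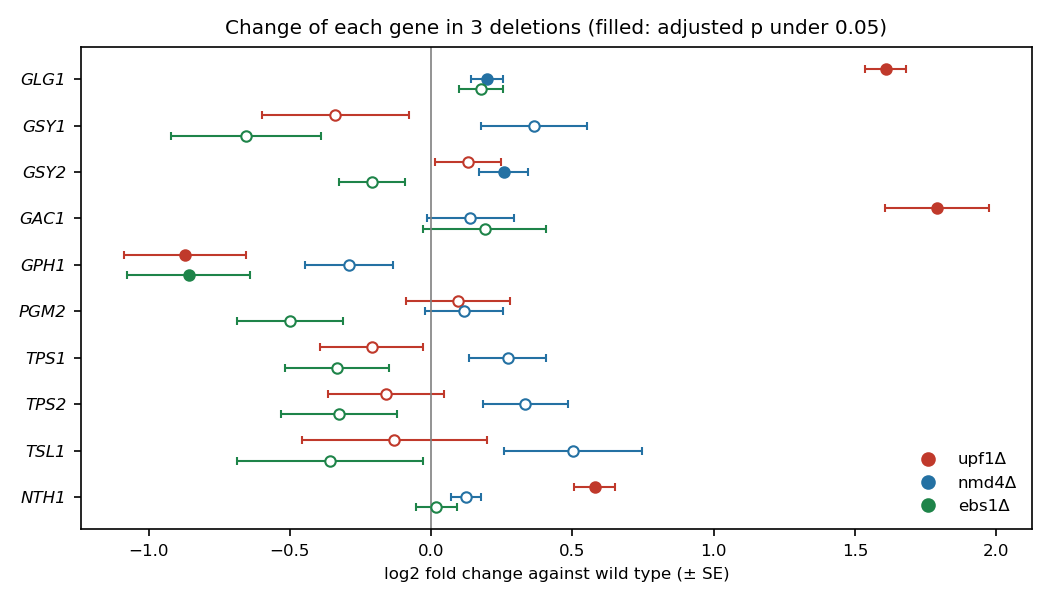
Log2 fold change against wild type (x axis, ± SE) of the 10 genes in upf1Δ, nmd4Δ and ebs1Δ, with filled points for an adjusted p under 0.05. Filled points are GLG1, GAC1, NTH1 and GPH1 in upf1Δ, GLG1 and GSY2 in nmd4Δ and GPH1 in ebs1Δ.

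The 6 remaining genes were not called in upf1Δ. The estimates were -0.34 ± 0.261 for GSY1, 0.13 ± 0.116 for GSY2, 0.09 ± 0.184 for PGM2, -0.21 ± 0.183 for TPS1, -0.16 ± 0.204 for TPS2 and -0.13 ± 0.328 for TSL1, with adjusted p-values of 0.261 to 0.736. Among these 6 the errors were largest for GSY1 and TSL1, whose libraries also differed most. Those of the others were below the error of GPH1, which was called. TSL1 was at 189, 90.6 and 163 CPM in upf1Δ, and at 204, 108, 222, 123 and 187 CPM in wild type. Replicate 2 of upf1Δ was the lowest of its genotype for GSY1, GSY2, GPH1, PGM2, TPS1, TPS2 and TSL1.

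Without Ebs1, GPH1 alone among the 10 was called, at -0.86 ± 0.217 (adjusted p = 0.0124), against a background of 7.38% of tested genes lower and 14% higher. The call was lost when wild type replicate 1 was left out (-0.64, adjusted p = 0.0653) and when only wild type and ebs1Δ entered the fit (-0.90, adjusted p = 0.0814). It remained at -0.51 (adjusted p = 0.041) without both wild type 1 and 3. Estimates for the genes of the trehalose complex and for both synthases were below 0 but not called. GSY1 had -0.66 ± 0.267 (adjusted p = 0.101), PGM2 -0.50 ± 0.188 (adjusted p = 0.0755), TSL1 -0.36 ± 0.329, TPS1 -0.33 ± 0.183, TPS2 -0.33 ± 0.205 and GSY2 -0.21 ± 0.116. The members' median was -0.33, against -0.01 over all tested genes. Replicate 1 of ebs1Δ was the highest of its genotype for all 8 genes that carry the stress element, and without it 5 members were called lower in place of 1, namely GPH1 (-0.996), GSY1 (-0.94), PGM2 (-0.72), TPS1 (-0.54) and GSY2 (-0.34). In that fit 510 of 6209 tested genes were lower, against 455 of 6162 in the main fit. PGM2 was also called without wild type replicate 2 (-0.63, adjusted p = 0.0308), PGM2 and GSY1 (-0.90, adjusted p = 0.0346) without wild type 2 and 4 together, and GLG1 was called higher without wild type replicate 5 (0.20, adjusted p = 0.0448).

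In nmd4Δ all estimates other than that of GPH1 (-0.29 ± 0.156, adjusted p = 0.177) were above 0, and their median was 0.23 against 0 over all tested genes. In all 2 genes were called higher, GLG1 (0.20 ± 0.056, adjusted p = 0.0144) and GSY2 (0.26 ± 0.086, adjusted p = 0.0354), and 0 lower, where the background was 13.6% higher and 14.4% lower. Neither call remained when matched libraries were treated as a block in limma voom (GLG1 0.17, adjusted p = 0.181; GSY2 0.26, adjusted p = 0.1), nor within batch 1 (adjusted p = 0.122 and 0.29) or batch 2 alone (adjusted p = 0.171 and 0.0735). Without wild type replicate 3 NTH1 was called as well (0.16, adjusted p = 0.0308), without wild type 1 and 3 together TPS1 (0.48, adjusted p = 0.0232) and NTH1 (0.21, adjusted p = 0.012) were called and GLG1 was not, and without nmd4Δ 2 and 5 together 0 were called by edgeR. GSY2 lost its edgeR call when wild type 2, 4 or 5 or nmd4Δ 1, 2, 4 or 5 was left out singly (adjusted p = 0.0565 to 0.103). GLG1 lost its own without wild type 1 (adjusted p = 0.0504). Of 28 alternatives GSY2 was called in 13 and GLG1 in 19. TSL1 had the largest estimate, 0.50 ± 0.243 (adjusted p = 0.14). Its 6 nmd4Δ libraries ranged from 221 to 260 CPM (median 233), and only wild type replicate 3, at 222 CPM, reached into that range. For TPS2 the nmd4Δ range of 165 to 187 CPM (median 174) lay above all wild type libraries (149, 113, 155, 114 and 162 CPM), yet the change of 0.33 ± 0.151 did not pass (adjusted p = 0.113). The effects in batch 1 and batch 2 had the same sign for each of the 10 genes, from -0.35 and -0.24 for GPH1 to 0.58 and 0.44 for TSL1, and share matched libraries.

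Mean levels of GSY1, GSY2, TPS1, TPS2 and TSL1 were highest in nmd4Δ and lowest in ebs1Δ. Of the 10 mRNAs 5 were higher in nmd4Δ than in ebs1Δ and 0 lower (background 26% in either direction, 10% higher and 16% lower). The largest difference was in GSY1, with 56.7 to 68.6 CPM in nmd4Δ (median 61.5) against 40.6, 21.9 and 28.2 in ebs1Δ, or 1.02 ± 0.253 (adjusted p = 0.0133). PGM2 (0.62 ± 0.178), TPS2 (0.66 ± 0.193), TPS1 (0.60 ± 0.175) and GSY2 (0.47 ± 0.110) followed, with adjusted p-values of 0.00798 to 0.0256. TSL1 (0.86 ± 0.313, adjusted p = 0.0597) and GPH1 (0.57 ± 0.207, adjusted p = 0.0582) missed the threshold although their libraries did not overlap. With matched libraries as a block 5 were called as well. Summing matched libraries left 3, with PGM2 (adjusted p = 0.0585) and TPS2 (adjusted p = 0.0603) lost, and using 1 library per matched set left 2, with TPS1 (adjusted p = 0.0683) lost too. Batch 1 alone left 1 call, GSY2. Leaving out ebs1Δ replicate 2, ebs1Δ replicate 3, or nmd4Δ replicates 2 and 5 together also left 1, and leaving out nmd4Δ replicate 2, or 1 and 4 together, left 2. Without nmd4Δ replicate 1 there were 3. Over all genes, those higher also fell in number, to 204 of 6198 with batch 1 alone. Without ebs1Δ replicate 2 there were 252 of 6207, without ebs1Δ replicate 3 275 of 6207, and without nmd4Δ 2 and 5 243 of 6158. The main fit had 617 of 6162.

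**Figure D4:**
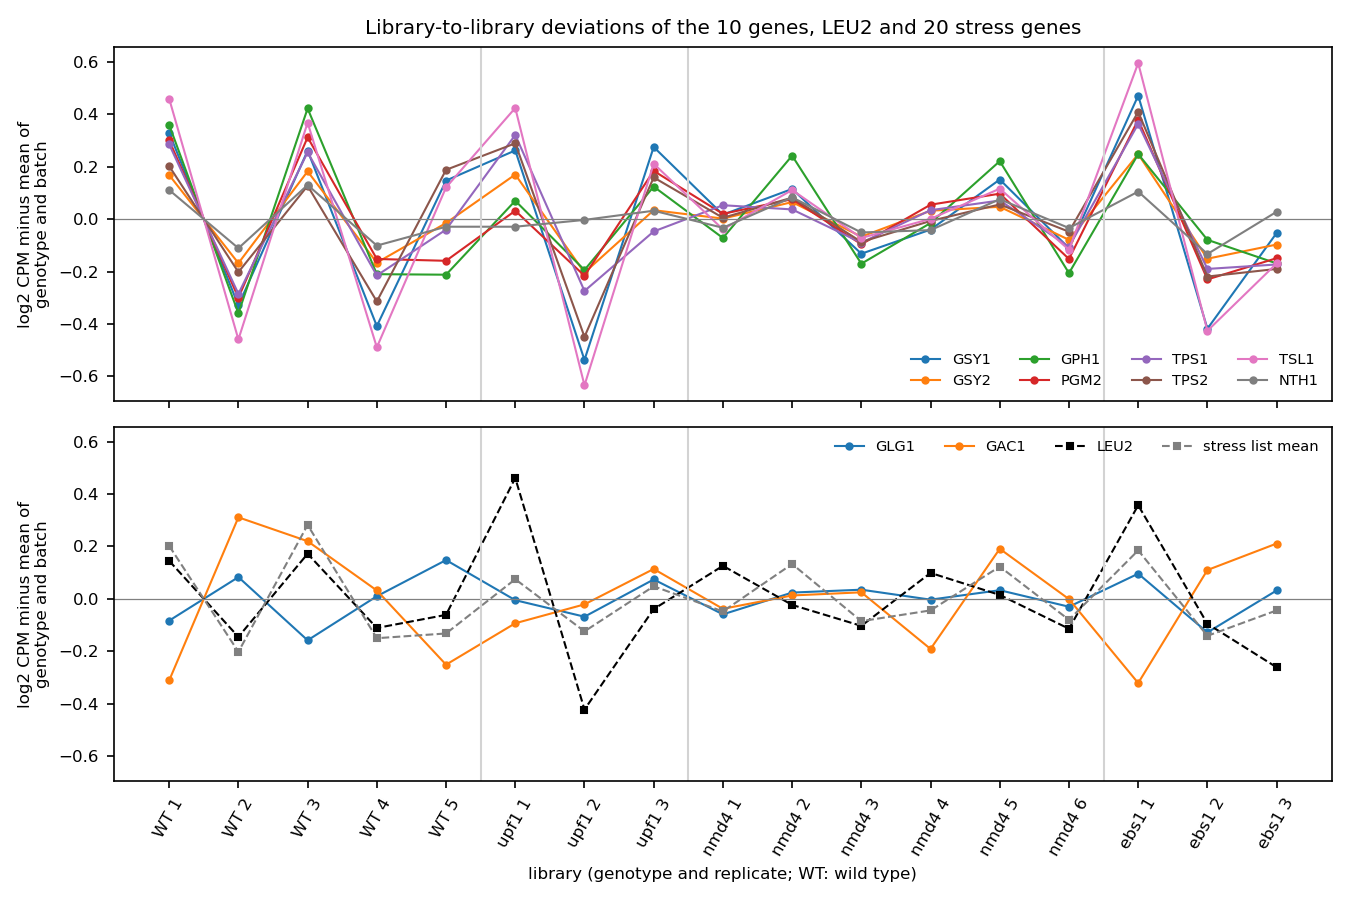
Deviation of each library from the mean of its genotype and batch (y axis, log2 CPM), with the 8 genes that hold stress elements above and GLG1, GAC1, LEU2 and the mean of 20 Msn2/4-dependent genes below. The 8 genes move as a group, with TSL1 widest, from -0.63 in upf1Δ replicate 2 to 0.60 in ebs1Δ replicate 1.

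Compared with nmd4Δ, upf1Δ had 3 of the 10 higher and 4 lower, where 36% of tested genes were higher and 30.9% lower. The 3 higher genes were GLG1, GAC1 (1.65 ± 0.169, adjusted p = 6.99e-08) and NTH1. The lower ones were GSY1 (-0.70 ± 0.247), GPH1 (-0.58 ± 0.207), TPS1 (-0.48 ± 0.174) and TPS2 (-0.49 ± 0.192), with adjusted p-values of 0.0225 to 0.0351. TSL1 did not pass (-0.63 ± 0.310, adjusted p = 0.0885). With replicate number as a block TSL1 passed too (-0.75, adjusted p = 0.0206), which made 5 lower. That block covers both batches, while pairing by number was checked in batch 1 only. Without upf1Δ replicate 2, 0 of the 4 lower calls were made by edgeR, and their estimates were -0.51, -0.52, -0.38 and -0.33 (adjusted p = 0.0696 to 0.123). Without nmd4Δ replicates 2 and 5 there were also 0, and without replicate 2, or 1 and 4 together, 1. Over all genes 2027 of 6197 were lower without upf1Δ replicate 2 and 1742 of 6158 without nmd4Δ replicates 2 and 5. Compared with ebs1Δ, upf1Δ had 5 of the 10 higher and 0 lower (background 33.8% and 27.4%), namely GLG1, GAC1 (1.60 ± 0.183, adjusted p = 4.43e-07), NTH1, PGM2 (0.59 ± 0.187, adjusted p = 0.0137) and GSY2 (0.34 ± 0.116, adjusted p = 0.0177). PGM2 and GSY2 lost their calls when upf1Δ replicate 3, ebs1Δ replicate 2 or ebs1Δ replicate 3 was left out, and GSY2 also without upf1Δ replicate 1. GSY2 was not called either when only upf1Δ and ebs1Δ entered the edgeR fit (0.31, adjusted p = 0.0628).

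The members also fell into groups by how they varied between libraries of the same genotype and batch. TSL1 had a residual SD of 0.431 on the log2 scale, above 96.5% of tested genes, and GSY1 (0.353), GPH1 (0.28), TPS2 (0.272), TPS1 (0.249) and PGM2 (0.248) were also well above the median gene (0.091). NTH1 (0.097) and GLG1 (0.098) were close to that median. Among the 8 genes with stress elements the residuals of any pair correlated at 0.59 to 0.98 (Pearson, median 0.86, 28 pairs, 17 libraries), with 0.98 for GSY1 and TSL1 and 0.97 for TPS2 and TSL1. GLG1 correlated with those 8 at -0.30 to 0.26 and GAC1 at -0.51 to -0.20. These are descriptions, since libraries share a set, a depth and a scaling, and GAC1 rests on few reads. GLG1 had as few as 519 reads in a library, and the part of counting error in its residuals was not tested.

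What moved with them was read from lists of other genes. Residuals of the 8 genes correlated at 0.71 (TPS2) to 0.97 (GPH1) with the mean of 20 Msn2/4-dependent stress genes, and those of GLG1 and GAC1 at -0.23 and -0.20. With the mean of 15 glucose-depletion markers the order was different, with GLG1 at -0.84, GPH1 at 0.62, PGM2 at 0.41 and the other 7 between 0.01 (TPS2) and 0.35 (NTH1). Summed over the 20, the level was 2017 to 2452 CPM in wild type, 1944 to 2393 in nmd4Δ, 1617 to 2017 in upf1Δ and 1499 to 1901 in ebs1Δ, a sum to which abundant genes such as YGP1 contribute most. By the mean log2 CPM of the 20 genes the order differed, with 5.256 to 5.697 in wild type, 5.376 to 5.62 in nmd4Δ, 5.599 to 5.798 in upf1Δ and 5.021 to 5.348 in ebs1Δ, so ebs1Δ overlapped wild type and upf1Δ was not lower. The plasmid-borne marker LEU2 moved as well. It was at 5612, 4587, 5638, 4633 and 4797 CPM in wild type, at 4846, 2627 and 3426 in upf1Δ, at 5222 to 6172 in nmd4Δ and at 4944, 3614 and 3221 in ebs1Δ. The correlation of its residuals was 0.91 with TPS1, 0.87 with GSY2, 0.84 with TPS2, 0.82 with TSL1, 0.35 with NTH1 and -0.03 with GLG1, and that with TPS1 was above 99.8% of tested genes. Against wild type LEU2 changed by -0.48 ± 0.194 in upf1Δ (adjusted p = 0.0378), and was not called in nmd4Δ (0.16) or ebs1Δ (-0.37). The part of growth state or of the plasmid in the members' differences was not tested.

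Genes most like each member over the 12 sets, among 5156 or 5157 candidates of at least 10 CPM, were read by Pearson correlation of log2 CPM. TSL1 was closest to TPS2 (0.984), DGR2 (0.979) and GSY1 (0.970). TPS2 had TSL1, DGR2 (0.979) and YLR345W (0.976) on top, and GSY1 had TPS2 (0.973), TSL1 and DGR2 (0.966). The top 3 of the other members held 0 members. GLG1 was closest to HUL4 (0.998), which was at 11.9, 11.96 and 14.2 CPM in the wild type sets and 34.7, 32.8 and 36.03 CPM in upf1Δ, then to DON1 (0.996) and MAL31 (0.995), a gene with close relatives. GPH1 was closest to COX5B (0.959), STF2 (0.910) and SSE2 (0.907), and PGM2 to TFS1 (0.959), SOL4 (0.957) and COQ4 (0.936). For GSY2 these were XKS1 (0.967), SDS24 (0.965) and AIM18 (0.963), and for TPS1 MCR1 (0.973), AIM17 (0.971) and GRE3 (0.964). For NTH1 they were FRT2 (0.983), RRD2 (0.979) and CTT1 (0.978), and for GAC1 LPX2 (0.989), YJL213W and YLR046C (0.988 each). A shared response to upf1Δ is enough to give a high value for GLG1, GAC1 and NTH1.

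Other enzymes of glycogen turnover went up in upf1Δ in 3 of 4 cases. For this list and those below, 36.4% of all tested genes were higher and 35.1% lower in upf1Δ. These shares were 13.6% and 14.4% in nmd4Δ, and 14% and 7.38% in ebs1Δ. SGA1, a glucoamylase known from sporulation, rose by 1.59 ± 0.183 (adjusted p = 3.21e-07) from a low level of 3.48 to 4.33 CPM in wild type. GLC3, the branching enzyme gene, rose by 0.79 ± 0.218 (adjusted p = 0.00515), and GDB1, for the debranching enzyme, by 0.71 ± 0.180 (adjusted p = 0.00263). The libraries of GLC3 overlapped, with 30.03 to 53.03 CPM in upf1Δ and 21.04 to 30.25 CPM in wild type. GLG2, the second glycogenin gene, did not pass (0.13 ± 0.086, adjusted p = 0.195). The median of the 4 was 0.75. In nmd4Δ the same 4 had 0.15 to 0.38 and in ebs1Δ -0.28 to 0.05, with 0 calls by edgeR in either. At an unadjusted p under 0.05 there were 3 in nmd4Δ and 0 in ebs1Δ. For that threshold no share of all tested genes is given, here or below, so such counts cannot be weighed.

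Regulators of glycogen synthase went both ways in upf1Δ, 4 of 10 higher and 4 lower (background 36.4% and 35.1%), with a median of -0.06. Of the phosphatase targeting subunits, GIP2 rose by 1.11 ± 0.116 (adjusted p = 8.11e-08), PIG1 by 0.45 ± 0.082 and PIG2 by 0.25 ± 0.096, in the same direction as GAC1. The catalytic subunit gene GLC7 fell by 0.38 ± 0.048 (adjusted p = 9.61e-07) and its activator gene GLC8 by 0.28 ± 0.047. Among cyclins of the kinase Pho85, which phosphorylates glycogen synthase, PCL10 rose by 0.88 ± 0.054 (adjusted p = 2.68e-11), whereas PCL7 fell by 0.36 ± 0.065 and PCL6 by 0.21 ± 0.073. PHO85 (0.05) and PCL8 (-0.18) did not pass. In ebs1Δ 2 rose, PIG1 (0.33 ± 0.083) and PCL10 (0.28 ± 0.055), and 3 fell, GLC7 (-0.17), GLC8 (-0.18) and PCL7 (-0.27). In nmd4Δ PCL10 (0.13) and PIG2 (0.20) rose and PCL7 fell by 0.18.

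Among 7 further trehalose genes 2 rose and 2 fell in upf1Δ (background 36.4% and 35.1%). The acid trehalase gene ATH1 rose by 0.64 ± 0.083 (adjusted p = 1.68e-06) and DCS2 by 0.45 ± 0.138 (adjusted p = 0.00744). BMH1 and BMH2, whose 14-3-3 proteins activate the neutral trehalase, fell by 0.28 ± 0.067 and 0.19 ± 0.065. TPS3 (-0.15), a second regulatory subunit of the synthase complex, NTH2 (-0.16) and DCS1 (-0.09) did not pass. In nmd4Δ ATH1 was called (0.185 ± 0.061, adjusted p = 0.0316), while TPS3 (0.21), DCS1 (0.17), NTH2 (0.10), BMH1 (0.06), BMH2 (0.04) and DCS2 (0.00) were not. In ebs1Δ DCS2 fell by 0.51 ± 0.146 and BMH2 by 0.23 ± 0.065, and the other 5 ranged from NTH2 (-0.26) to ATH1 (0.04).

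Of 7 genes that supply hexose phosphates and UDP-glucose, 4 were called lower and 0 higher in upf1Δ, where 35.1% of all tested genes were lower. Their median was -0.26, against -0.02 over all tested genes. The 300 genes nearest in level to TPS1, which is not among the 7, had a median of -0.26 as well. Such medians were not computed for the 7 genes themselves. HXK1, a hexokinase gene, fell by 1.19 ± 0.283 (adjusted p = 0.00198), UGP1, which makes UDP-glucose, by 0.58 ± 0.126 (adjusted p = 6.40e-04), EMI2 by 0.46 ± 0.159 and HXK2 by 0.26 ± 0.089. PGM1 (-0.14), GLK1 (-0.08) and PRM15, also called PGM3 (0.02), did not pass. UGP1 also fell in ebs1Δ, by 0.39 ± 0.126 (adjusted p = 0.0376), where HXK1 (-0.81, adjusted p = 0.0581), GLK1 (-0.57), EMI2 (-0.37), HXK2 (-0.14), PRM15 (-0.07) and PGM1 (-0.04) did not pass. In nmd4Δ the estimates of the 7 ran from -0.06 for PRM15 to 0.36 for GLK1, with 0 calls by edgeR and 0 at an unadjusted p under 0.05.

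**Figure D5:**
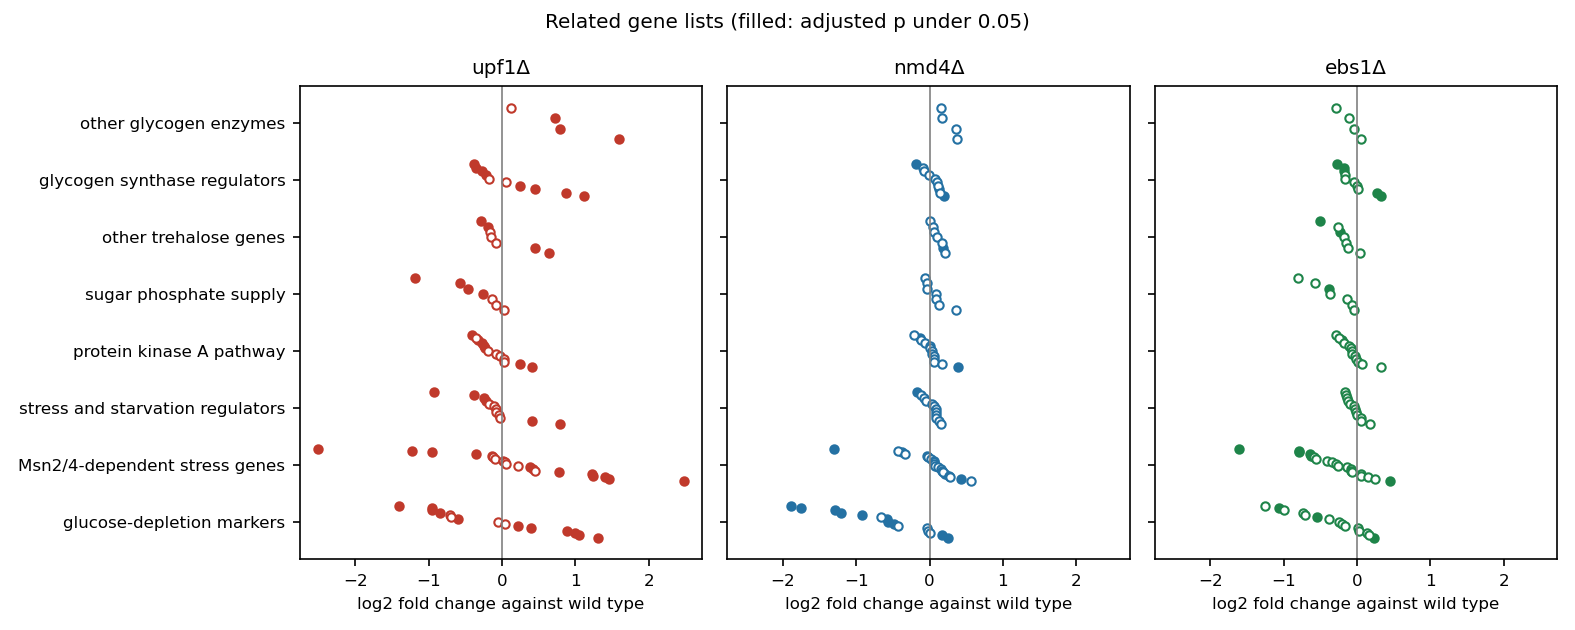
Log2 fold change against wild type (x axis) of the genes of 8 related lists in upf1Δ, nmd4Δ and ebs1Δ, 1 point per gene, filled where the adjusted p was under 0.05. In upf1Δ 3 of 4 other glycogen enzymes are higher and 4 of 7 sugar phosphate genes lower, and in nmd4Δ 8 of 15 glucose-depletion markers are lower. Of all tested genes 36.4% were higher and 35.1% lower in upf1Δ, and 14.4% lower in nmd4Δ.

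Upstream, MSN4 fell in upf1Δ by 0.93 ± 0.088 (adjusted p = 2.02e-08) and MSN2 by 0.22 ± 0.056, as did SNF1 (-0.38 ± 0.054) and SNF4 (-0.25 ± 0.053), for the glucose-sensing kinase. IGO1 rose by 0.79 ± 0.080 and the kinase gene YAK1 by 0.41 ± 0.112. Of these 12 stress and starvation regulators 2 were higher and 4 lower in upf1Δ (background 36.4% and 35.1%). In nmd4Δ PSK2 alone was called (-0.17 ± 0.047, adjusted p = 0.0138), and in ebs1Δ 0 of 12 were called by edgeR, with 3 at an unadjusted p under 0.05. In the protein kinase A pathway 2 of 13 rose in upf1Δ, GPA2 (0.41 ± 0.065) and PDE1 (0.24), and 5 fell, among them the receptor gene GPR1 (-0.41 ± 0.060), TPK3 (-0.28), RAS2 (-0.25) and CYR1, for adenylate cyclase (-0.23). TPK3 fell in nmd4Δ by 0.13, and RAS2 fell in ebs1Δ by 0.21.

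Other Msn2/4-dependent genes were called in both directions. In upf1Δ 8 of 20 rose and 4 fell (background 36.4% and 35.1%), GPX1 (2.48 ± 0.088), ALD3 (1.40 ± 0.088), RTN2 (1.24 ± 0.089) and SSA4 (1.22 ± 0.113) among the former, HSP12 (-2.51 ± 0.193) and YGP1 (-1.23 ± 0.165) among the latter. In ebs1Δ 5 fell, HSP12 (-1.61 ± 0.185), GRE1 (-0.65 ± 0.150), YGP1 (-0.63 ± 0.163), SOL4 (-0.79 ± 0.217) and SPI1 (-0.79), GPX1 rose by 0.45 ± 0.096, and the median was -0.28. In nmd4Δ HSP12 (-1.31 ± 0.133) and GRE1 (-0.38 ± 0.104) fell, GPX1 (0.21 ± 0.069) and HSP78 (0.43 ± 0.141) rose, and the median was 0.07. Markers of glucose depletion, taken as a sign of growth stage, summed to 422 to 546 CPM in wild type, 440 to 505 in nmd4Δ, 462 to 513 in ebs1Δ and 588 to 610 in upf1Δ. Abundant genes such as ATO3 contribute most to this sum. By mean log2 CPM the order differed, with 3.621 to 3.696 in upf1Δ, which lay within the wild type range of 3.12 to 3.971. This mean was 2.928 to 3.163 in nmd4Δ and 3.162 to 3.621 in ebs1Δ. Of the 15, 2 rose and 8 fell in nmd4Δ (background 13.6% and 14.4%), the latter including CYB2 (-0.58 ± 0.076), ADH2 (-0.92 ± 0.134), FBP1 (-1.75 ± 0.255) and ICL1 (-0.49 ± 0.086). In upf1Δ 6 rose and 5 fell, with PCK1 at 1.31 ± 0.167, ICL1 at 0.99 ± 0.114 and GUT1 at 0.88 ± 0.079 against ADH2 at -0.96 ± 0.191. In ebs1Δ 1 rose, GUT1 (0.24), and FBP1 (-1.06 ± 0.351) and ADH2 (-0.55 ± 0.186) fell.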

How the data were processed

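Libraries were made with a strand-specific kit after poly(A) selection, as stated in the labels' protocols. The values deposited by the authors are raw counts, 1 per gene and library. The submitters' processing notes name sacCer3, STAR 2.7.11a, featureCounts and Subread 2.0.5. Neither annotation nor strand setting nor the handling of multiply mapped reads is stated there.

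The tests ran under R 4.3.3, in edgeR 4.0.16, on the counts as deposited. The steps were filterByExpr by genotype (6162 genes), TMM scaling, a robust quasi-likelihood fit with genotype and batch (5 coefficients, 12 residual degrees of freedom) and two-sided tests adjusted over all genes by the Benjamini-Hochberg method. The SE is the log2 fold change over the square root of F. Residuals are log2 CPM (prior count 2) minus the mean of genotype and batch. All value columns were used. Alternatives were limma 3.58.1 voom with matched sets as a block (consensus correlation 0.7185), DESeq2 1.42.0 and those named in the closing section. The script was tested on simulated data. The 10 members, the lists and the naming rule (all members, the 4 called genes of lowest p in each list, every gene of lists of at most 7, and the 3 most alike genes per member) were chosen with earlier results of these data known. Some other genes were named after their values were seen. Counting error weighs most on GAC1, at 20 to 98 reads per library. GLG1 held as few as 519 reads, and the part of counting error in its residuals was not tested. Of the results that the naming rule selects, 1 is not reported here. Pairing by replicate number was checked in batch 1 by correlating residuals over all genes. For upf1Δ and nmd4Δ all 3 same-numbered pairs exceeded 0.1 (0.13, 0.13 and 0.18), so the block is given beside that comparison. In no other comparison did every pair do so among at least 3 pairs. The block itself was fitted on all 17 libraries. It therefore joins wild type replicate 3, of batch 2, with replicates 3 of batch 1. It also joins wild type 4 and 5 with nmd4Δ 4 and 5 in batch 2. The check did not cover these pairs.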

Additional observations from a re-analysis of the deposited data

How the results depend on the processing

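The 4 calls in upf1Δ against wild type (3 higher, 1 lower) were made under all 21 alternatives. Other counts moved. In nmd4Δ against wild type 2 members were higher in all libraries. This became 0 with batch 1 alone, batch 2 alone, limma voom with matched sets as a block, matched libraries summed, and 1 library per matched set, and 5 with replicate number as a block, where TPS1 (0.41, adjusted p = 0.00305), TPS2 (0.42, 0.0473), TSL1 (0.71, 0.0342) and NTH1 (0.17, 0.0348) were gained and GLG1 (0.16, 0.0518) was lost by edgeR. Leaving out a library or a matched set gave 0 to 3. Over all genes, those higher in nmd4Δ numbered 836 of 6162 in the main fit. They numbered 89 of 6198 with batch 1 alone, 418 of 6041 with batch 2 alone and 250 of 6162 with limma voom. Summing gave 267 of 6195, 1 library per matched set 228 of 6149, and the replicate block 902 of 6162. In the settings that left 0 members, fewer genes were thus called over all genes as well. In ebs1Δ against wild type 1 member was lower. This became 2 with no batch term, 2 with no robust fit and 0 with only the groups compared, and leaving out a library gave 0 to 5 lower and 0 to 1 higher. Of 6162 genes, 455 were lower in the main fit, 659 with no batch term and 459 with no robust fit. With only the groups compared 134 of 6016 were lower. In upf1Δ against nmd4Δ 4 were lower, against 1 with batch 1 alone and 2 with 1 library per matched set, and 0 to 5 when libraries were left out. Over all genes 1907 of 6162 were lower, against 1674 of 6198 with batch 1 alone and 1655 of 6149 with 1 library per matched set. In upf1Δ against ebs1Δ 5 were higher, against 4 with only the groups compared, and 3 to 5 when a library was left out. Over all genes 2084 of 6162 were higher, against 1816 of 6126 with only the groups compared. In nmd4Δ against ebs1Δ 5 were higher, against 1 with batch 1 alone, 3 with matched libraries summed and 2 with 1 library per matched set, and 1 to 7 when libraries were left out. Over all genes 617 of 6162 were higher. This was 204 of 6198 with batch 1 alone, 382 of 6195 with summing and 216 of 6149 with 1 library per matched set. Fits on fewer libraries have fewer residual degrees of freedom, and beyond that the cause was not tested. No called member reversed under any alternative run. DESeq2, its size factors in edgeR and the lack of a filter left each count within 1.5 times. Replicate numbers met the criterion for pairing in upf1Δ against nmd4Δ and in no other comparison. Wild type has too few libraries in batch 1 to meet it. Single same-numbered pairs were higher elsewhere, at 0.47 and 0.32 for wild type with ebs1Δ. For upf1Δ with ebs1Δ they were 0.43, 0.51 and -0.07, and for wild type with upf1Δ 0.15 and 0.16. Residuals of batch 1 libraries with the same number in different genotypes correlated at -0.08 to 0.51 (15 pairs, 9 above 0.1), and libraries with different numbers at -0.63 to 0.41. The replicate block moved no other count by over 1.5 times, and also added TSL1 to the lower calls of upf1Δ against nmd4Δ and GPH1 (0.63, adjusted p = 0.0421) and TSL1 (0.99, adjusted p = 0.0184) to the higher calls of nmd4Δ against ebs1Δ, both by edgeR. This block joins libraries of batch 2 by number as well, such as wild type 3 with upf1Δ 3, where pairing was not checked. Over all genes, matched libraries as a block moved the nmd4Δ counts from 836 higher and 889 lower to 250 and 266. GAC1, at 20 to 98 reads per library, is limited by depth.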
